A study of Gallus gallus with 8 samples.

Results

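The change in hypothalamic gene expression between 3 weeks and 1 week of age was measured within a lean line (LL) of chickens. The 8 arrays used were all those of LL week 3 (4 arrays) and LL week 1 (4 arrays), out of 32 in the study, and they were chosen by the line and age in the sample titles. Both groups were birds of the lean line raised under a standard broiler regime, and as labelled they differed in age alone. The whole hypothalamus was taken and frozen, RNA of each bird sample was labelled with Cy3, and it was hybridised on a spotted cDNA array (DEL-MAR 14K) against a Cy5-labelled pool of all the study's RNA, both lines and 4 ages. The fat line (FL) at week 3 and week 1 (4 arrays each) served to test whether the age step differed between the lines. The labels give neither sex nor diet nor the borders of the dissection, and the replicates are biological per the study's design text.

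The hypothalamus links feeding, energy balance, growth and stress to the brain and to the pituitary. Its arcuate neurons make appetite-stimulating peptides such as neuropeptide Y and appetite-suppressing products of the POMC gene, and neurons of other nuclei release the factors that drive the pituitary hormones. In chicks the first weeks after hatch are a time of fast growth, during which glia mature and myelin is laid down. Whole tissue also carries blood, and avian red cells keep a nucleus and globin transcripts.

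Every value below is a log2 ratio of Cy3 over Cy5 on the background-corrected, loess-normalized scale, so a value of 1 means a level 2 times that of the pool. A difference between groups, called the step here, is a difference of such ratios with week 3 minus week 1. A clone is a printed cDNA (spots of 1 accession averaged), and 7917 clones, of 3740 named genes and of unnamed cDNAs, were bright enough to be tested. A clone passed when its p-value from limma, adjusted over all clones by the Benjamini-Hochberg method, was under 0.05.

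LL week 3 replicate 1 stood apart from the other 7 lean line arrays. The median Cy3 signal over local background was 2.33, 4.38, 5.49 and 6.92 on the LL week 3 arrays (replicates 1 to 4), against 3.83, 4.76, 5.77 and 7.72 on the LL week 1 arrays. The means were 4.78 ± 1.94 at LL week 3 and 5.52 ± 1.67 at LL week 1 (SD), with p = 0.571 by an exact permutation test (two-sided, n = 4 arrays each, where the smallest possible p is 0.0286). The test did not pair arrays by replicate number, and at each number the LL week 3 array had the lower signal. Replicate 1 of LL week 3 had 2585 clones above background, against 6879 to 9048 on the other LL week 3 arrays and 4495 to 11994 on the LL week 1 arrays. Its log2 ratios correlated with those of the other 7 arrays at r between -0.32 and -0.01 (Pearson, across clones), while those 7 correlated with one another at 0.40 to 0.72. All arrays carried the sample in Cy3 and the pool in Cy5 per the labels, so its sign was kept. The spread of its clones about the LL week 1 mean was 0.602 (SD, log2), against 0.212 to 0.217 for the other LL week 3 arrays. The counts of clones that passed are therefore given with and without it, and so is each step below, of the clone that stands for a gene, that differs by over 1.5 times without it.

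**Figure D1:**
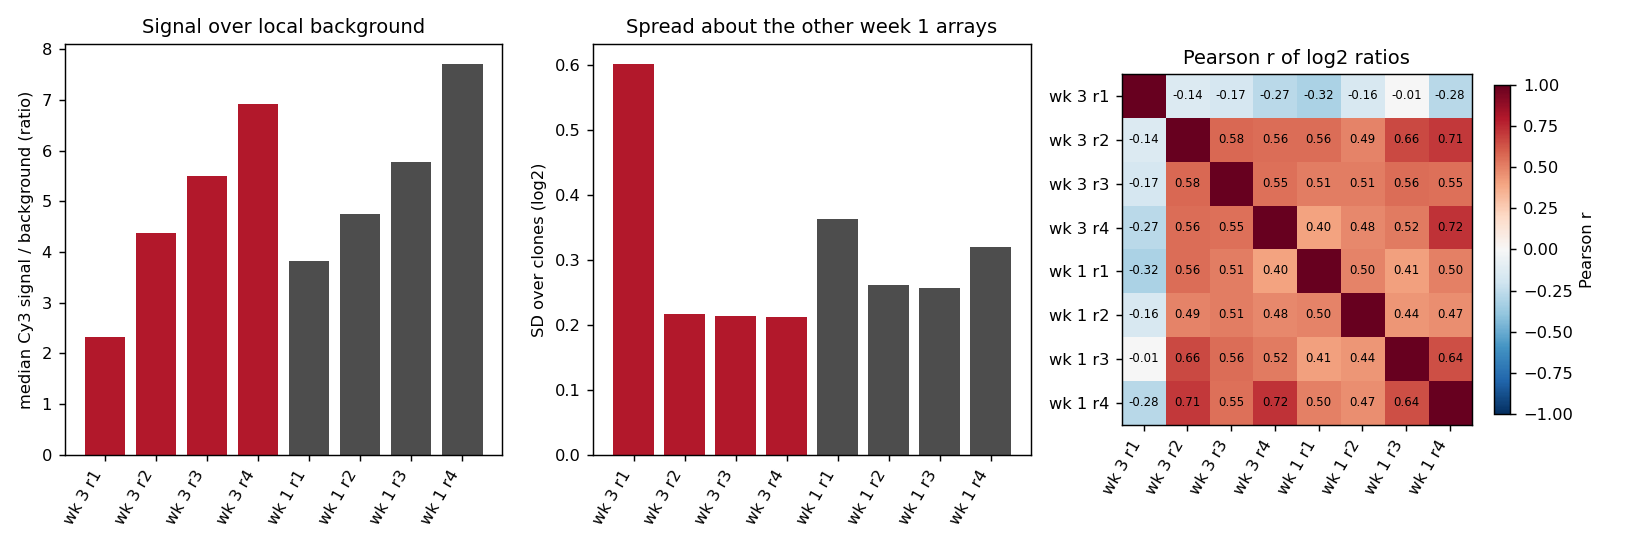
The 8 lean line arrays, with LL week 3 in red left of LL week 1 in grey. The panels show the median Cy3 signal over local background (a ratio), the SD over clones of each array's log2 ratio minus the mean of the LL week 1 arrays (for a week 1 array, of the other 3), and Pearson's r between arrays over the clones tested; LL week 3 replicate 1 has the lowest signal (2.33), the widest spread (0.602) and no r above 0.

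Defining markers were checked against the tissue label, as far as the array names them. The neuronal gene SNAP25, the myelin gene MBP, the astrocyte gene GFAP and the appetite peptide precursor POMC were measured, and SNAP25 and MBP were above background on all 8 arrays. NPY was on the array but too dim to be tested, and AGRP, CARTPT, TRH, OXT, SST and PMCH were not among the named clones. Growth hormone (GH) and prolactin (PRL), which are made in the anterior pituitary, were above background on all 8 arrays. The step was -0.03 ± 0.24 (SE) for GH and 0.11 ± 0.12 for PRL, with adjusted p-values of 0.990 and 0.870 by limma, and the GH step was -0.22 without LL week 3 replicate 1. CGA, the alpha subunit of the pituitary glycoprotein hormones, had the smallest p of the pituitary list, with a step of 0.60 ± 0.31 (adjusted p = 0.861) and 0.25 without that array. It was at 0.74, -0.85, -0.43 and -0.70 at LL week 3, against -1.04, -0.79, -0.55 and -1.25 at LL week 1, so replicate 1 alone stood above the pool. The list had 9 genes tested, with a median step of 0.00 (-0.01 without that array). GH log2 ratios ran from -1.17 to 0.14 at LL week 3 and from -0.71 to -0.19 at LL week 1, so the ranges overlapped. The part of pituitary tissue in other results was not tested.

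Few clones passed between the ages in the lean line. Of 7917 clones, 0 were higher and 2 were lower at LL week 3 than at LL week 1, 0.0253% of those tested. The clones were an unnamed cDNA (block 25, sub-row 9, column 5 of the array) and STK10, a STE20-family serine/threonine kinase known from lymphocytes. At an unadjusted p under 0.05 there were 319 clones, or 4.03%, with 183 (2.31%) higher and 136 (1.72%) lower, where 395.85 would be expected with no change at all. Without LL week 3 replicate 1, 0 clones were higher and 2 lower, and 80 (1.01%) had an unadjusted p under 0.05. These 2 were the unnamed clone of block 25 and an unnamed clone of block 40 (sub-row 7, column 18). STK10 did not pass there (adjusted p = 0.0936 by limma). Both counts at an unadjusted p under 0.05, 319 and 80, lay below the 395.85 expected. Few calls therefore cannot be read as little change, and why the counts fell short was not tested. LL week 3 and LL week 1 values did not overlap for 203 clones (2.56%), of which 120 (1.52%) lay above at week 3 and 83 (1.05%) below. For a clone with 4 values in each group, no overlap has a probability of 0.0286 with no change at all.

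The 95% intervals of the step bound a missed change only for clones above background at both lean line ages. The median standard error of the step was 0.147 and the median half-width of its 95% interval 0.302. For 7301 clones (92.2%) the whole interval lay within 1 log2 unit of 0, and for 4858 it lay within 0.5. A clone was tested if bright enough in any group of the study, so the 7301 include clones near background in LL. The unnamed clone of block 15, sub-row 5, column 7 had an interval of -0.739 to 0.242. It was above background on 1 array of each LL group. Near background the ratio need not follow the true level, so a narrow interval there is no bound. The SD of the step over clones was 0.212, and 0.148 without LL week 3 replicate 1. Over equal classes of 2639 clones by brightness, the SD of the step was 0.209 in the dim class, 0.220 in the middle class and 0.208 in the bright class. When LL week 3 replicate 1 was left out, it was 0.154, 0.155 and 0.133 in these classes. The median half-width of the interval, with all arrays, was 0.336 in the dim class and 0.281 in the bright class.

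The largest change belonged to the unnamed clone of block 25. Its log2 ratios were -0.71, -0.47, -0.97 and -0.31 at LL week 3, against 1.54, 1.57, 1.92 and 1.65 at LL week 1. The clone stood above the pool on every LL week 1 array and below it on every LL week 3 array. The step was -2.29 ± 0.35 (SE), or 4.88-fold lower, with an adjusted p of 0.00403 by limma. Without LL week 3 replicate 1 it was -2.25 ± 0.38 with an adjusted p of 0.0261. The clone has no gene symbol in the annotation used here, and no sequence was at hand to identify it.

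STK10 showed the same pattern at a smaller size. Its log2 ratios were -0.52, -0.34, -0.71 and -0.29 at LL week 3, against 1.20, 0.61, 1.34 and 0.95 at LL week 1. The groups did not overlap. The step was -1.49 ± 0.27 (SE), or 2.81-fold lower, with an adjusted p of 0.0293 by limma. Without LL week 3 replicate 1 it was -1.47 ± 0.29, with an adjusted p of 0.0936, which does not pass. A further clone annotated as STK10 had a step of -0.20 ± 0.28, so the fall belongs to 1 printed clone and not to every clone that carries the name.

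The array place of these clones is a measured fact to set beside them. Both were printed at sub-row 9, column 5, the unnamed clone in block 25 and STK10 in block 28. The clones at the same place in blocks 26 and 27, looked up after these values were seen, were NFASC, a cell adhesion protein of axons, and TOP2A, a topoisomerase of dividing cells. NFASC had a measured step of -0.36 ± 0.19 (adjusted p = 0.861 by limma), but it was above background on 0 of 4 LL week 3 arrays and on 3 of 4 LL week 1 arrays, so its LL week 3 level is only a bound. Other clones of NFASC had steps of 0.24 and 0.09. TOP2A had log2 ratios of -0.35, -0.15, 0.71 and -0.09 at LL week 3, against 1.01, -0.31, 1.07 and 0.64 at LL week 1, and a step of -0.57 ± 0.27 (adjusted p = 0.861). The 16 clones tested at this place in other blocks had steps between -0.41 and 0.14, with a median of -0.10. What the shared place contributes was not tested.

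**Figure D2:**
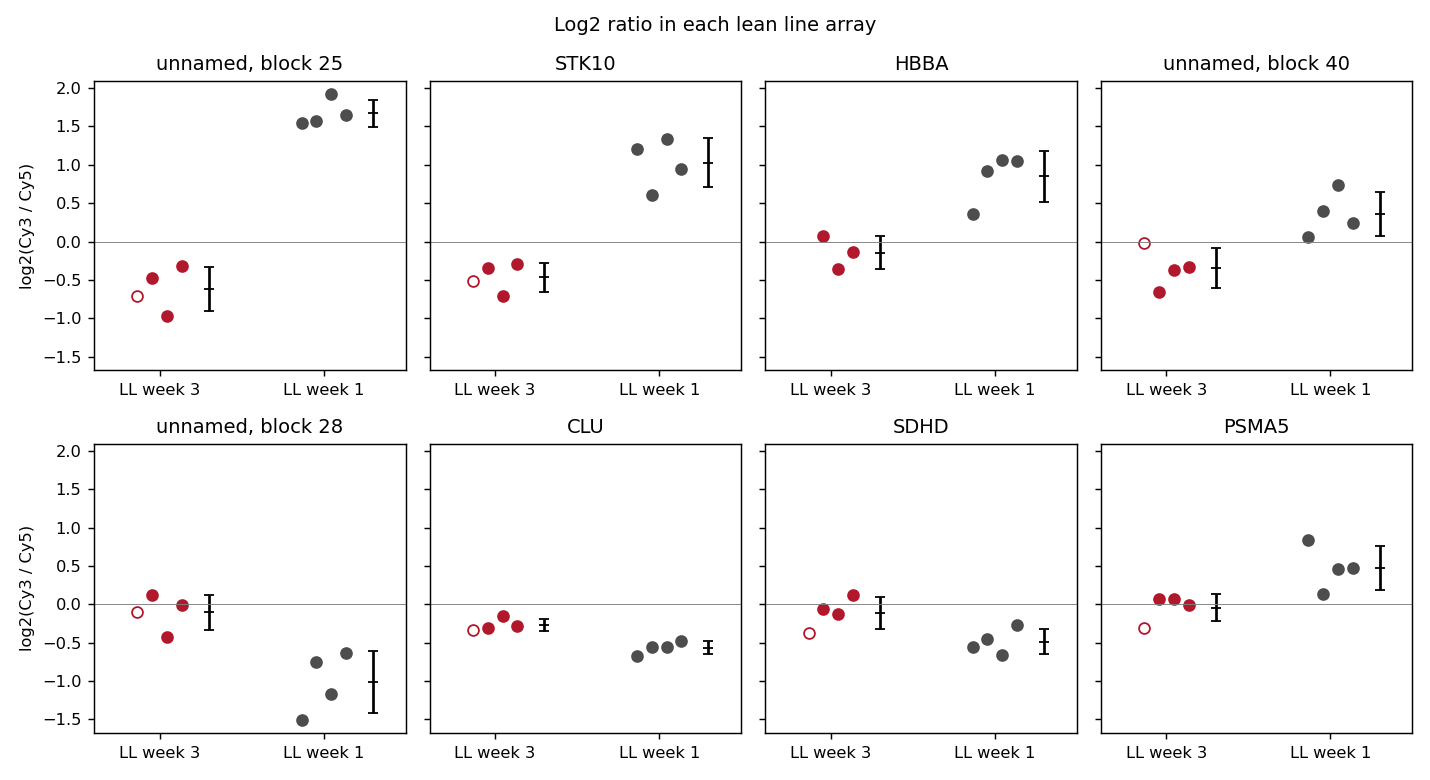
Log2(Cy3/Cy5) of 8 clones on each array, LL week 3 (red, replicate 1 open) left of LL week 1 (grey), with the mean and SD beside each group. The unnamed clone of block 25 and STK10 passed the test; in HBBA, the unnamed clone of block 40, the unnamed clone of block 28, CLU and PSMA5 the groups do not overlap either, but the adjusted p-values were 0.0960 or more; in SDHD they overlap.

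The unnamed clone with the smallest p among the clones that did not pass lay at block 40, sub-row 7, column 18. It had log2 ratios of -0.02, -0.66, -0.38 and -0.34 at LL week 3, against 0.06, 0.40, 0.74 and 0.24 at LL week 1. Its step was -0.71 ± 0.14, with an adjusted p of 0.0960 by limma. Without LL week 3 replicate 1, whose value was the highest of its group, the step was -0.82 and the adjusted p 0.0293, which passes. The clone at block 28, sub-row 14, column 2 was the unnamed clone with the smallest p among those higher at week 3, with -0.10, 0.12, -0.43 and -0.01 at LL week 3, against -1.50, -0.75, -1.17 and -0.63 at LL week 1. Its step was 0.91 ± 0.24, with an adjusted p of 0.861. The second such clone, at block 40, sub-row 17, column 17, had a step of 0.46 ± 0.13 and the same adjusted p. It was not above background on LL week 3 replicates 1 and 2 or on LL week 1 replicates 1 and 3. Its lowest value (-0.57) and its highest (0.33) were among these.

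After STK10, the named gene with the smallest p was a globin. HBBA, a beta-type globin of the red cell, had log2 ratios of 0.07, -0.36 and -0.14 on the LL week 3 arrays that measured it (replicate 1 had no value), against 0.36, 0.93, 1.06 and 1.05 at LL week 1. The groups did not overlap. The step was -0.99 ± 0.22 (SE), with an unadjusted p of 0.000146 and an adjusted p of 0.290 by limma, so it did not pass. HBA1, an alpha-type globin, had log2 ratios of -0.08, -0.29, -0.12 and -0.01 at LL week 3, against 0.32, 0.30, 0.24 and 0.28 at LL week 1. Its groups did not overlap, and the SD was 0.120 at LL week 3 and 0.0310 at LL week 1 (n = 4 each). The step was -0.41 ± 0.15, and -0.43 without LL week 3 replicate 1, with an adjusted p of 0.861 in the fit over all arrays.

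The red cell list held 7 tested genes, of which 3 had positive and 4, both globins included, negative steps, with a median of -0.03 (-0.11 without LL week 3 replicate 1), against 0.00 over the 3740 genes. The membrane anion exchanger SLC4A1 had a step of -0.03, the cytoskeletal linker EPB41 0.03, ankyrin ANK1 0.15, carbonic anhydrase CA2 -0.14 and the linker histone H1F0 0.44. The steps without LL week 3 replicate 1 were -0.14 for SLC4A1, 0.04 for ANK1 and 0.05 for H1F0, so the higher values of ANK1 and H1F0 rested on that array. ALAS2, the haem synthesis enzyme of red cells, was not among the named clones. In whole tissue, fewer cells of a type and less RNA per cell cannot be told apart, and the amount of blood in each sample was not measured.

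No named gene passed as higher at LL week 3, so the 8 with the smallest p-values are given as values. CLU, a secreted chaperone made by astrocytes and neurons, was at -0.33, -0.31, -0.16 and -0.28 at LL week 3, against -0.67, -0.55, -0.56 and -0.48 at LL week 1. These groups did not overlap, and the SD was 0.0785 at LL week 3 and 0.0794 at LL week 1 (n = 4 each). The step was 0.29 ± 0.09, and 0.31 without LL week 3 replicate 1, with an unadjusted p of 0.00324 and an adjusted p of 0.861 by limma. The clone with these values was not above background on replicate 1 of either week. A brighter CLU clone, which stands for the gene in the astrocyte list, had a step of -0.19 ± 0.29, and 0.13 without LL week 3 replicate 1.

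SDHD, which anchors succinate dehydrogenase in the inner mitochondrial membrane, was at -0.38, -0.06, -0.13 and 0.13 at LL week 3, against -0.56, -0.45, -0.67 and -0.28 at LL week 1. The step was 0.38 ± 0.14 and grew to 0.47 without LL week 3 replicate 1. PRDM10, a zinc finger regulator of transcription, had a step of 0.30 ± 0.10 without overlap between the groups, while its other clone had 0.00. MLST8, a subunit of both mTOR complexes, had a step of 0.40 ± 0.12 over 3 arrays of each group, and 0.22 without LL week 3 replicate 1. The other MLST8 clone, above background on all 4 arrays of each group, had a step of -0.01 ± 0.11. MAFK, a small Maf transcription factor, had the largest step of the 8, 0.89 ± 0.32, and the widest spread, 0.598 (SD, n = 3) at LL week 3 and 0.655 (n = 4) at LL week 1. It was above background on 2 arrays of each group, its highest value (0.67 on LL week 3 replicate 1) was not, and the step was 0.57 without that array. TUSC3, a subunit of the complex that attaches N-glycans, had a step of 0.26 (0.17 without LL week 3 replicate 1), APOH, a plasma glycoprotein, 0.32, and BTBD10 0.28. The adjusted p-value of all 8 genes was 0.861, and 1.00 without LL week 3 replicate 1.

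Among genes lower at LL week 3, 6 followed STK10 and HBBA, and none of the 6 passed. PSMA5, an alpha subunit of the proteasome core, was at -0.31, 0.06, 0.06 and -0.01 at LL week 3, against 0.83, 0.14, 0.46 and 0.48 at LL week 1. The groups did not overlap, and the step was -0.52 ± 0.17. ADCY3, the adenylate cyclase of neuronal cilia, was at -0.23, 0.09, -0.04 and -0.13 at LL week 3, against 1.43, 0.13, 0.18 and 0.86 at LL week 1. Its step of -0.73 ± 0.25 rested mainly on replicates 1 and 4 of LL week 1. BBS7, a subunit of the BBSome that carries receptors into cilia, had a step of -0.32 ± 0.10, and its other clone had -0.12. EPRS, which charges transfer RNA with glutamate and proline, had a step of -0.32 ± 0.11, and its other clones had -0.31 ± 0.21 and -0.32 ± 0.32. The first clone was not above background on LL week 3 replicates 1 and 2. The other clones were above background on only 2 and 1 of the LL week 3 arrays. FAM214A had a step of -0.44 ± 0.14 over 3 arrays of each group, and the small-subunit ribosomal protein RPS21 -0.33 ± 0.12. All 6 had an adjusted p of 0.861 by limma.

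Some of the large steps were the work of 1 array. A look at the 8 clones whose step exceeded 1 log2 unit, chosen after their values were seen, found all of them lower at LL week 3. Beside the unnamed clone of block 25 and STK10, TADA1, a subunit of the SAGA coactivator complex, had a step of -1.78 with an adjusted p of 0.861. Its log2 ratio was 7.09 on LL week 1 replicate 3 and between -0.11 and 0.69 on the other 7 arrays. The glutamate transporter SLC1A6 was at 5.36 and the neuronal calcium sensor HPCAL1 at 4.28 on LL week 1 replicate 1, and no other lean line array exceeded 0.61 for either. SCAP, which escorts the SREBP transcription factors to the Golgi, was measured on 2 LL week 1 arrays only. It lay at -0.81, 0.71, 0.51 and -0.46 at LL week 3, against 0.89 and 1.5 at LL week 1. The rest of the 8 were unnamed clones of block 10 (sub-row 3, column 9) and block 3 (sub-row 6, column 4). Their steps were -1.025 and -1.075, and their groups overlapped. Without LL week 3 replicate 1, 5 clones exceeded 1 log2 unit, 4 of them among the 8.

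No gene of the 26 gene lists passed. The lists held 369 tested genes, of which 20 (5.42%) had an unadjusted p under 0.05, against 150 of all 3740 genes, and 11 without LL week 3 replicate 1, against 40. List medians lay between -0.21 and 0.11, against 0.00 over all 3740 genes, and between -0.11 and 0.12 without that array. With all 8 arrays the lowest medians were those of glutamate and GABA receptors and enzymes, ribosomal proteins, immature neurons, and glycolysis.

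These list medians moved with LL week 3 replicate 1. For the 38 cytosolic ribosomal protein genes the median distance from the LL week 1 mean was -0.52, -0.02, -0.21 and 0.06 on the LL week 3 arrays (replicates 1 to 4), against -0.01, -0.12, -0.15 and 0.21 on the LL week 1 arrays. The median step was -0.15, and -0.04 without replicate 1. For 14 glycolysis and glucose uptake genes the same distances were -0.55, -0.04, -0.14 and 0.08 at LL week 3. For 10 genes of astrocytes and radial glia they were -0.67, 0.09, 0.04 and 0.18, and the median step was -0.07 with replicate 1 and 0.12 without it. For 5 glutamate and GABA genes they were -0.77, -0.28, 0.15 and -0.04, and the median step was -0.21 with replicate 1 and 0.02 without it. Voltage-gated ion channels lay the other way on replicate 1, at 0.39, against 0.01 to 0.03 on the other LL week 3 arrays. The part that the low signal of this array had in these values was not tested.

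**Figure D3:**
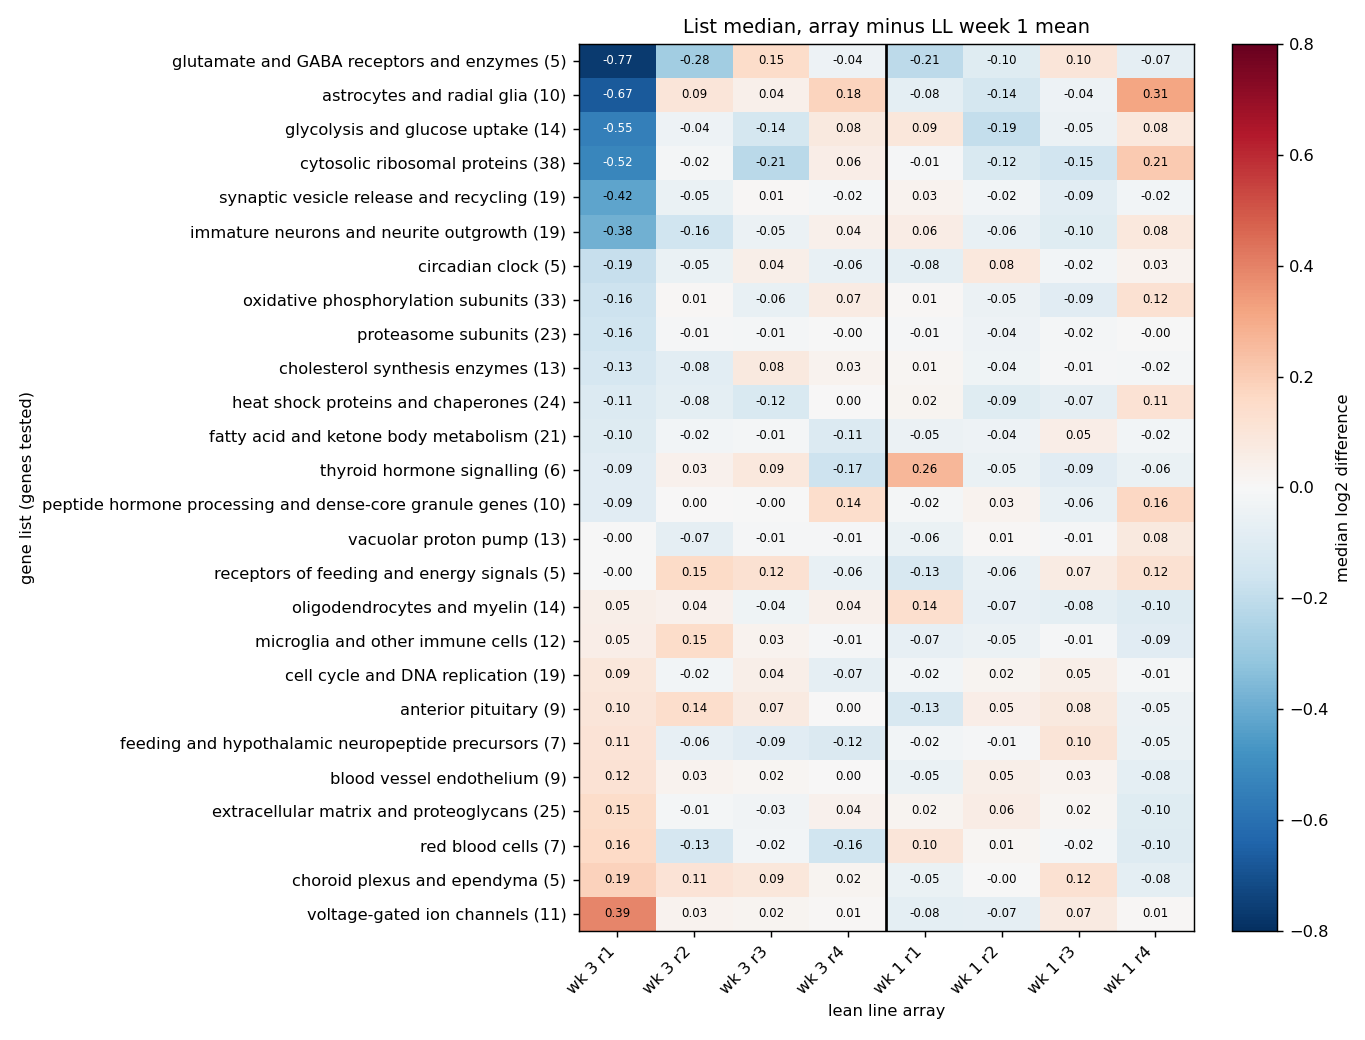
Median over the genes of each list of the array's log2 ratio minus the LL week 1 mean (colour and number, log2), for the LL week 3 arrays left of the line and the LL week 1 arrays right of it; the number of genes tested stands in brackets. Values past 0.35 in either direction are all on LL week 3 replicate 1, from -0.77 for glutamate and GABA genes to 0.39 for voltage-gated ion channels.

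The hypothalamus's own signals were measured by few clones. Of 10 feeding and neuropeptide precursors on the array, 7 were tested, 0 passed and 4 had positive steps, against 1907 of all 3740 genes. POMC had a step of -0.08 ± 0.11, with -0.05 without LL week 3 replicate 1 and -0.01 in its other clone. TAC1, the substance P precursor, had 0.15 ± 0.09, and PNOC, the nociceptin precursor, 0.15 ± 0.10, with 0.02 without LL week 3 replicate 1 and -0.01 in its other clone. SCG2, a secretogranin of dense-core granules, was at -1.26, 1.21, 0.93 and 0.62 at LL week 3, against 1.45, 0.95 and 1.64 at LL week 1, where replicate 2 had no value. Its step of -0.97 ± 0.46 became -0.42 without LL week 3 replicate 1, the array with the negative ratio. Among receptors of feeding and energy signals, 5 were tested and 0 passed, with 0.23 ± 0.14 for the somatostatin receptor SSTR2, -0.22 ± 0.21 for the growth hormone receptor GHR, and -0.06 ± 0.09 for the cannabinoid receptor CNR1. The step was 0.13 for SSTR2 and -0.01 for GHR without LL week 3 replicate 1. The thyroid hormone receptor THRA had a step of -0.60 ± 0.37, and the circadian transcription factor CLOCK -0.39 ± 0.28, which was -0.14 without that array.

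Of the genes of neuronal growth and transmission none passed. Steps were negative for 12 of 19 genes of immature neurons and 13 of 19 of synaptic vesicles, against 1833 of all 3740 genes. The median step of the synaptic vesicle list was -0.09, and -0.04 without LL week 3 replicate 1. Among 19 genes of immature neurons and neurite outgrowth, 2 had an unadjusted p under 0.05 and both steps were negative: BASP1, a growth cone protein, at -0.47 ± 0.17, and STMN2, which regulates growth cone microtubules, at -0.43 ± 0.20. BASP1 was at -0.82, -0.31, -0.28 and 0.11 at LL week 3, against -0.03, 0.07, 0.02 and 0.51 at LL week 1. STMN2 was at -0.42, 0.30, 0.19 and 0.18 at LL week 3, against 0.58, 0.42, 0.36 and 0.61 at LL week 1, and its groups did not overlap. Leaving out LL week 3 replicate 1, the step was -0.30 for BASP1 and -0.27 for STMN2, and 0 of the 19 genes had an unadjusted p under 0.05. A further STMN2 clone had a step of 0.59 ± 0.36. The median of the list was -0.14, and -0.03 without LL week 3 replicate 1. In the synaptic vesicle list, 1 of 19 genes had an unadjusted p under 0.05, the clathrin light chain CLTB at -0.90 ± 0.32, while its other clones had -0.11 and -0.02. The AMPA receptor subunit GRIA2 had a step of -0.74 ± 0.27, with -1.0, 0.29, 0.24 and 0.19 at LL week 3, against 1.70, 0.15, 0.33 and 0.48 at LL week 1, so that the extreme value of each group was its replicate 1. The GRIA2 step was -0.43 without LL week 3 replicate 1, and 0.00 from the authors' log2 ratios.

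No gene of the lists of glia, dividing cells and other cell types passed. Among those with the largest steps was ENPP2, a secreted lysophospholipase of the oligodendrocyte list, at 0.58 ± 0.39, while its other clone had 0.01 ± 0.30. Others were ID4, a transcriptional inhibitor of the astrocyte list, at -0.56 ± 0.36, and CD3E, a T cell receptor chain, at -0.52 ± 0.37. The CD3E step was -0.16 without LL week 3 replicate 1. Of 14 genes of oligodendrocytes and myelin, 0 had an unadjusted p under 0.05 and the median step was 0.04. MBP had -0.01 ± 0.22, with 0.17 without LL week 3 replicate 1 and -0.02 in its other clone. GFAP had 0.22 ± 0.30, and 0.43 without LL week 3 replicate 1, against -0.19 in its other clone. Of 19 cell cycle and replication genes, 2 had an unadjusted p under 0.05, both with negative steps: TOP2A, given above, and the clamp loader subunit RFC4 at -0.50 ± 0.22, which was -0.19 without LL week 3 replicate 1 and -0.07 in its other clone, and which turned to 0.09 with the authors' log2 ratios. Over all 3740 genes, 1907 steps were positive. All 5 genes of the choroid plexus list had positive steps, with a median of 0.11 and also 0.11 without that array, and none had an unadjusted p under 0.05. The largest of them was transthyretin (TTR), the thyroid hormone carrier, at 0.41 ± 0.33, and 0.20 without that array. The other clone of KL, an ageing-related membrane protein of the plexus, had -0.54. The endothelial list had a median of 0.04 (-0.02 without that array) and the microglial and immune list 0.05 (0.02).

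Energy metabolism, protein quality control and matrix lists held single genes with small p-values. The proton pump subunit ATP6V1A had a step of -0.39 ± 0.15, and -0.19 without LL week 3 replicate 1. Of 33 oxidative phosphorylation subunits, SDHD alone had an unadjusted p under 0.05, and the median was -0.02 (0.00 without that array). The small heat shock protein CRYAB had 0.40 ± 0.17 and 0.51 without that array, and the endoplasmic reticulum co-chaperone DNAJC3 -0.58 ± 0.25, with -0.25 without that array and -0.02 in its other clone. CYP51A1, a demethylase of cholesterol synthesis, had -0.18 ± 0.07. Among 25 matrix genes the collagen chains COL4A2 (0.27 ± 0.11) and COL18A1 (0.55 ± 0.24) had positive steps and COL6A1 (-0.75 ± 0.35) a negative one, each with an adjusted p of 0.861 by limma. The steps without LL week 3 replicate 1 were 0.13 for COL4A2, 0.55 for COL18A1 and -0.46 for COL6A1. The ribosomal proteins RPL21 and RPS3 had steps of -0.42 ± 0.15 and -0.21 ± 0.09, and RPL21 was -0.21 without LL week 3 replicate 1. The other RPS3 clone had a step of 0.06 ± 0.11.

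The later ages of the lean line follow the same clones, and share the LL week 1 arrays with the step. The unnamed clone of block 25 averaged 1.67, -0.62, -1.37 and -2.21 at weeks 1, 3, 5 and 7. It was above background on 4, 3, 2 and 0 of the 4 arrays, so the level at week 7 is only an upper bound. STK10 averaged 1.03, -0.47, -0.79 and -1.07 at these ages, and it was above background on 4, 3, 2 and 1 arrays, with 3 values at week 7 and 4 at each other age. HBBA averaged 0.85, -0.15, -0.17 and -0.53, and its difference from week 1 passed at week 7 (-1.38, adjusted p = 0.00153 by limma). HBA1 averaged 0.28, -0.13, -0.01 and 0.09, and the difference between week 7 and week 1 was -0.19 (adjusted p = 0.721). The unnamed clone of block 40, sub-row 7 averaged 0.36, -0.35, -0.58 and -0.48, and its difference from week 1 passed at week 5 and week 7 (adjusted p of 0.00132 and 0.00564). CLU averaged -0.56, -0.27, -0.25 and -0.06, and its difference from week 1 passed at week 7 (0.51, adjusted p = 0.0101). PSMA5 averaged 0.48, -0.05, 0.13 and 0.25, and the values of weeks 5 and 7 lay between those of weeks 1 and 3.

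**Figure D4:**
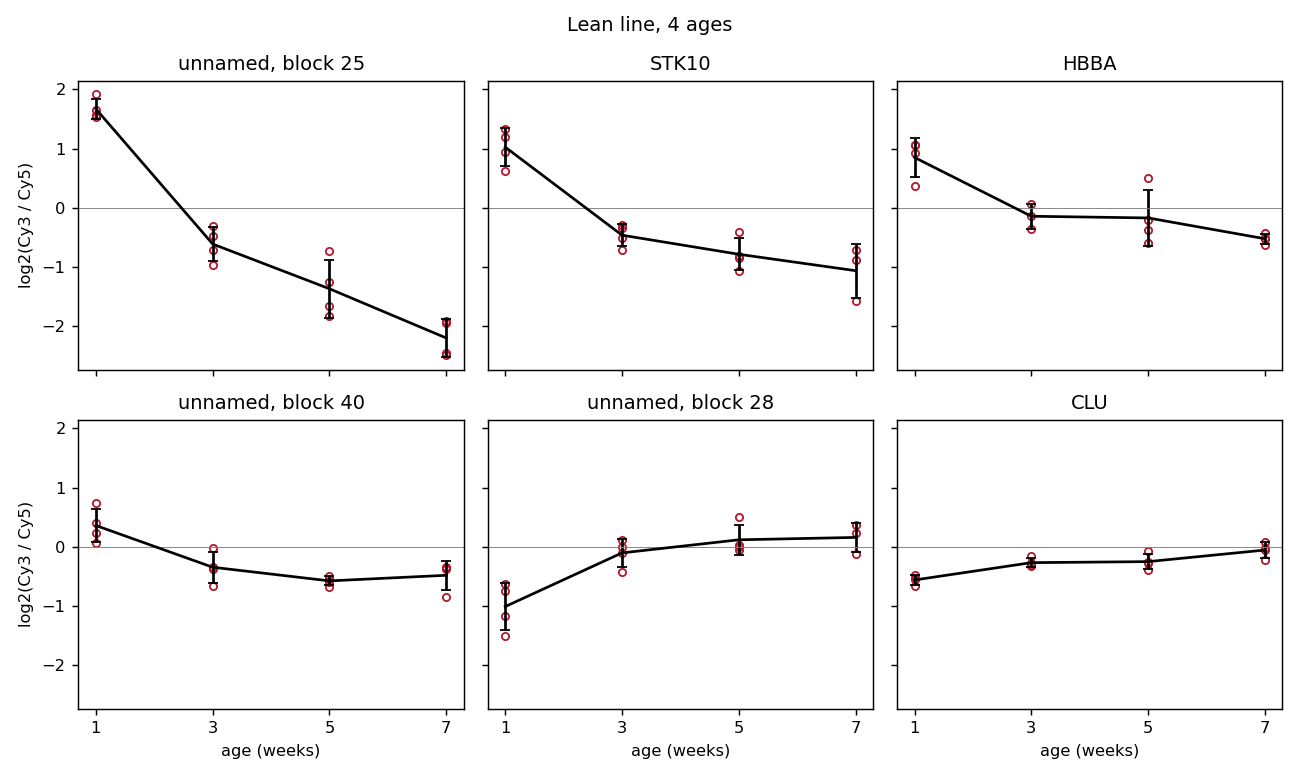
Log2(Cy3/Cy5) of 6 clones in the lean line at weeks 1, 3, 5 and 7, with each array as a circle and the mean and SD as a line with bars. The unnamed clone of block 25 has the longest descent of the 6, with means of 1.67, -0.62, -1.37 and -2.21; at week 7 it was not above background on any array.

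The fat line gave more calls over the same ages. FL week 3 against FL week 1 gave 178 clones (2.25%) higher and 80 (1.01%) lower, 3.26% of those tested, with 1638 (20.7%) at an unadjusted p under 0.05. The SD of the step over clones was 0.212 in LL and 0.312 in FL. The FL week 3 arrays had a signal over background of 3.91 to 5.87, and the FL week 1 arrays 2.94 to 4.40. The lowest r between 2 of the 32 arrays, -0.38, was that of FL week 1 replicate 4 with FL week 5 replicate 4. How the FL counts depend on the processing or on single arrays was not tested. The 178 clones higher in FL had a median step of -0.04 in LL and of 0.80 in FL, where they were chosen. Of these, 66 (37.1%) had a positive step in LL, against 51.0% of all clones. Without LL week 3 replicate 1, 106 (59.6%) had a positive step in LL, against 51.9% of all clones. Their LL median was then 0.03. On LL week 3 replicates 1 to 4 their median distance from the LL week 1 mean was -0.27, -0.17, 0.08 and 0.15. Replicates 1 and 2 thus lay on the other side from replicates 3 and 4. The 80 clones lower in FL had a median step of -0.01 in LL (-0.04 without that array) and of -0.47 in FL. A negative step in LL was found for 45 of them (56.25%), against 49.0% of all clones. Without LL week 3 replicate 1 it was found for 54 (67.5%), against 48.1% of all clones. The median distance of these 80 clones was 0.07, 0.09, -0.05 and -0.15 on LL week 3 replicates 1 to 4, so the arrays again differed in sign. Both clones that passed in LL also passed in FL, with steps of -2.29 in LL and -1.55 in FL for the unnamed clone of block 25, and of -1.49 in LL and -1.03 in FL for STK10. HBBA had -0.99 in LL and -0.82 in FL, where its adjusted p was 0.0390. The unnamed clone of block 28 had 0.91 in LL and 1.01 in FL, where its adjusted p was 0.0218. EPRS had -0.32 in LL and -0.49 in FL, where its adjusted p was 0.0182. In FL the other EPRS clones had positive steps, 0.05 and 0.40.

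The difference between the lines was tested directly as the LL step minus the FL step. For 8 clones (0.101%) this difference passed, all below 0, and 1143 clones (14.4%) had an unadjusted p under 0.05. Without LL week 3 replicate 1, 2 clones passed (0.0253%) and 687 (8.68%) had an unadjusted p under 0.05. SGIP1, an endocytic adaptor of neurons linked to energy balance in rodents, had a step of -0.06 ± 0.18 in LL and 1.32 ± 0.16 in FL, a difference of -1.39 ± 0.24 (adjusted p = 0.0142 by limma). It averaged -0.04 at LL week 3 (3 arrays) and 0.03 at LL week 1, and 0.34 at FL week 3 and -0.98 at FL week 1. The FL week 1 arrays stood low, while the other groups lay near the pool.

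The other named genes of this set had the same shape. HNRNPH1, a splicing regulator, had steps of -0.27 in LL and 1.25 in FL, a difference of -1.52 ± 0.26 (adjusted p = 0.0142), while its other clones had differences of -0.48 and -0.18. It was above background on 1 of 4 FL week 1 arrays, so its level there was mostly not measured above background. ATP6V1B2, of the pump that acidifies vesicles, had -0.31 in LL and 1.12 in FL, a difference of -1.43 ± 0.26 (adjusted p = 0.0208). ACTR1A, the actin-related protein of dynactin, had -0.03 in LL and 1.29 in FL, a difference of -1.32 ± 0.25 (adjusted p = 0.0269), but it was above background on 0 of 4 FL week 1 arrays, so its FL level at week 1 is only a bound. Its other clone had a difference of -0.28. VCP, an ATPase that unfolds ubiquitinated proteins, had -0.20 in LL and 0.92 in FL, a difference of -1.12 ± 0.22 (adjusted p = 0.0374), and its other clone had -1.09. The 2 clones that passed without LL week 3 replicate 1 were SGIP1 (adjusted p = 0.0294) and HNRNPH1 (0.0389). SGIP1 had no value on that array, so leaving that array out could not change its LL step. Within LL none of these genes passed, and their adjusted p-values were 0.861 or more. The LL step without LL week 3 replicate 1 was -0.07 for HNRNPH1, -0.14 for ATP6V1B2, -0.08 for VCP and 0.00 for ACTR1A. The difference did not pass for STK10 (-0.46 ± 0.38, adjusted p = 0.570) or HBBA (-0.17 ± 0.31, adjusted p = 0.826), which leaves room for unequal steps of that size. In a fit that adjusted for array signal, 0 clones passed for the difference and 2 for the step within LL. The difference also had 0 calls after scaling between arrays, with the authors' log2 ratios, with all quality letters kept, and when LL week 1 replicate 1 was left out.

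**Figure D5:**
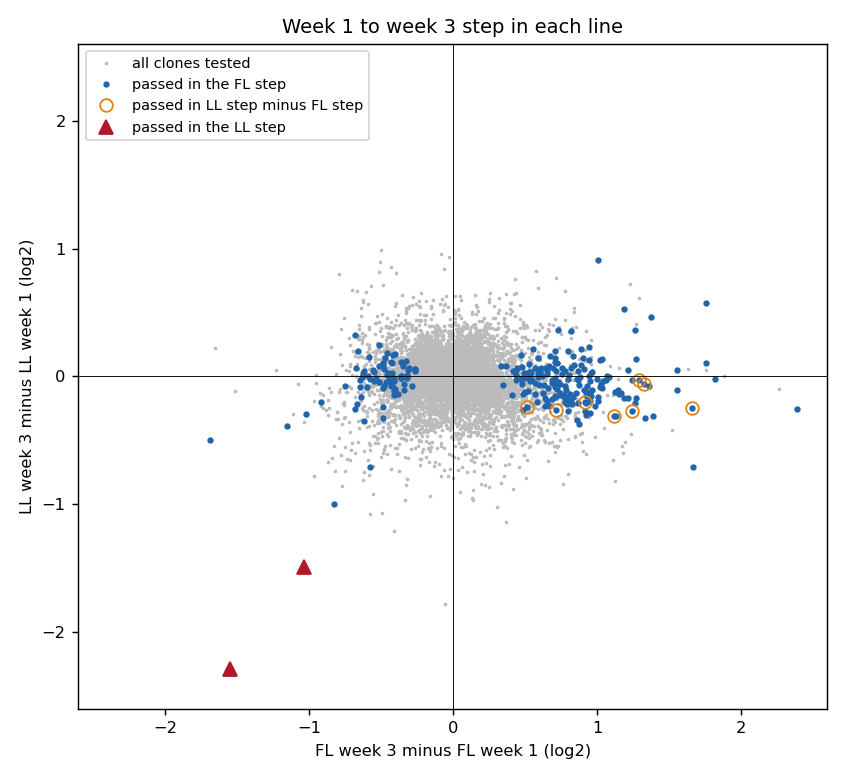
The step in LL (LL week 3 minus LL week 1, vertical axis, log2) against the step in FL (FL week 3 minus FL week 1, horizontal axis, log2) for the 7917 clones. The 2 clones that passed in LL (triangles) lie at the lower left, the 258 that passed in FL (blue) spread along the horizontal axis, and the 8 whose difference passed (open circles) have FL steps above 0 and LL steps below 0.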

How the data were processed

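Per the file headers, each deposited array file holds the authors' raw and local background intensity of both channels, the spot area, a quality letter per spot and the authors' log2 ratio; their normalization, scanner and software are not given in the sources used. The series table holds the authors' log2 ratios per group. Of its values, 64503 of 64503 lay within 0.005 of the array files' means by place, against 1775 of 30053 by spot name, so the array files' names were used. Gene symbols came from the platform annotation (10478 spots named), and the identity of printed clones was not checked.

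Raw intensity was divided by spot area, corrected by normexp (offset 50) and turned into log2(Cy3/Cy5), which global loess then normalized within arrays (span 0.3, 4 iterations, 960 empty spots at weight 0). Spots lettered A, X, Y or Z, which the header marks as unsatisfactory, were left out; a letter S, absent from that key, was kept (86 to 109 spots per lean line array). Whether raw intensity still holds the local background could not be settled. A clone was tested when its Cy3 signal was above the 95th percentile of the empty spots on at least 3 of 4 arrays of any group. It also needed at least 2 values in every group. One limma 3.58.1 model (R 4.3.3) fitting 8 group means to 32 arrays gave every comparison, two-sided, with Benjamini-Hochberg adjustment over 7917 clones. Errors are standard errors of that model unless given as SD. The number of arrays limits the precision.

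The brightest clone stood for a gene in the lists and in counts of genes, while the genes with the smallest p-values were ranked by clone. Genes were named by rule: those called, then the smallest p-values, up to 8 per direction; for lists, up to 4 members with the smallest p-values. Comparison, lists and rules were chosen with earlier results of these data known. Scripts ran in Python 3.11.15 with scipy 1.17.1. The alternatives were: no background subtraction, loess per printed block, scaling between arrays, no or a stricter filter on dim clones, all quality letters, the authors' log2 ratios, only the arrays compared, array weights, the signal as a covariate, the replicate number as a block, and leaving out each array.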

Additional observations from a re-analysis of the deposited data

Results flagged for a closer look

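Within a group of 4 arrays, an array was looked at again when its gap to the nearest other, as a share of the group's range, exceeded Dixon's 95% critical value. This held in 3 of 42 groups checked, and chance gives about 1 in 20. The median correlation of an array with the other 7 lean line arrays was -0.167 for LL week 3 replicate 1, far below the other LL week 3 arrays. For TUSC3, LL week 3 replicate 1 was the highest array at 0.34, against -0.07 to 0.00 on the other LL week 3 arrays, and the step of 0.26 was 0.17 without it. For the unnamed clone of block 40, sub-row 17, column 17, LL week 1 replicate 1 was the lowest array at -0.57, where the clone was not above background.

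The step differed between the lines, by the test of the difference itself, for 8 clones. The LL step minus the FL step was -1.39 for SGIP1, -1.52 for HNRNPH1, -1.43 for ATP6V1B2, -1.32 for ACTR1A and -1.12 for VCP. It was -1.91, -0.98 and -0.75 for unnamed clones at block 15 (sub-row 5, column 7), block 13 (sub-row 6, column 8) and block 3 (sub-row 11, column 2). The clone of block 15 was above background on 0 of 4 FL week 1 arrays and on 1 array of each LL group, and ACTR1A on 0 of 4 FL week 1 arrays, so these differences are of levels that are partly only bounds. HNRNPH1 was above background on 1 and the clone of block 3 on 2 of 4 FL week 1 arrays. The FL week 1 arrays, whose signal over background ran from 2.94 to 4.40, enter all 8 values, and the part of their signal in them was not tested beyond the fit with signal as a covariate, in which 0 clones passed.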

How the results depend on the processing

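The count of 2 clones in the lean line step became 4 with array weights (243 at an unadjusted p under 0.05) and with no background subtraction (362), 1 with no filter on dim clones (457), and 0 with all quality letters kept (213), always by limma and always lower at LL week 3. Leaving out 1 array gave 1 to 2, with 1 without LL week 3 replicate 2, 3 or 4 or LL week 1 replicate 3 or 4. The other settings gave 2 or, with the authors' log2 ratios, 3. The unnamed clone of block 25 passed in 17 of 18 settings that tested it and STK10 in 9 of 18. Neither clone was tested in the setting with the authors' log2 ratios. The 3 clones that passed there were TOP2A, HBBA and the unnamed clone of block 40, sub-row 7. STK10 failed without any 1 of the 4 LL week 3 arrays or of LL week 1 replicates 1, 3 and 4. HBBA passed in 3 of 19 and the unnamed clone of block 40, sub-row 7 in 5 of 19. The genes of the lists that passed numbered 1 with array weights and 1 with no background subtraction (HBBA in both), and 2 with the authors' log2 ratios (HBBA and TOP2A, whose step there was -0.88), against 0 in the reported fit.

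The count of 8 for the LL step minus the FL step became 4 with loess per printed block, 14 with no background subtraction, 5 with no filter on dim clones, and 0 with signal as a covariate (641 at an unadjusted p under 0.05), scaling between arrays (898), all letters kept (902) or the authors' log2 ratios (588). Leaving out 1 array gave 0 to 25. The count was 0 when LL week 1 replicate 1 was left out, 1 for LL week 3 replicate 2, 2 for LL week 3 replicate 1, 23 for LL week 3 replicate 4 and 25 for FL week 1 replicate 1. It was 5 for replicate 2 of LL week 1, for replicate 2 of FL week 1, and for each of replicates 1, 2 and 4 of FL week 3. The causes were not tested. Both clones that passed in LL, and the 5 named genes that passed for the difference, kept their sign in every setting that tested them. Of 138 log2 differences followed across settings, 32 changed sign in at least 1 setting, and none of these 32 had passed; the largest was that of GRIA2, at -0.74.

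The replicate number as a block gave 2 clones for the lean line step and 9 for the difference. At an unadjusted p under 0.05 by limma it gave 439 clones for the step, against 319, and 1300 for the difference, against 1143. Same-numbered LL arrays of weeks 3 and 1 had deviations from their group means that correlated at -0.24, -0.45, -0.22 and 0.34. Of these 4 pairs, 1 matched best with its own number. The LL week 3 mean includes replicate 1, whose wide spread enters the deviations of the other LL week 3 arrays. Signal over background rose with the number, from 3.83 to 7.72 at LL week 1 and from 2.33 to 6.92 at LL week 3. It rose in the same order at LL week 5 (3.40 to 7.10), LL week 7 (3.28 to 6.29) and FL week 3 (3.91 to 5.87). At FL weeks 1, 5 and 7 the order was not strict. Whether same-numbered arrays shared a processing step is not settled by these values.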
